A study of Mus musculus with 6 samples.

Results

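The members described here are the NRF2 peaks that fall in short interspersed elements (SINEs). A peak was taken when the deposited detailed annotation of its window named a repeat of class SINE. The rule gave 1375 of 16057 peaks, or 8.56%, from 4 peak lists, and they merged into 1184 separate regions. They carried 33 element names from 7 families, and the nearest transcription start site (TSS) belonged to 1079 different genes.

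NRF2, encoded by Nfe2l2, was mapped by chromatin immunoprecipitation and sequencing in mouse embryonic fibroblasts of strain 129S6/SvEvTac. The cells were wild type (WT) or GCN2-/- (GCN2 KO), and they spent 24 h in complete DMEM or in DMEM without leucine before harvest. Among the 6 samples are 4 NRF2 libraries, 1 per condition, and 2 input libraries from complete medium, 1 per genotype. Each list was called against the complete-medium input of its own genotype, and there was thus no input of cells deprived of leucine. The labels do not say how the fibroblast lines were made or whether each was a clone, and peak positions check neither the knockout label nor the cell type. With 1 library per condition there is no replicate error, no difference between lists was tested, and the 95% intervals below are exact Clopper-Pearson intervals that cover counting error only.

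NRF2 binds antioxidant response elements as a dimer with a small Maf protein and activates genes of glutathione, NADPH and iron metabolism. GCN2, encoded by Eif2ak4, is the kinase that senses uncharged tRNA when an amino acid runs short. SINEs are short retrotransposons with an internal RNA polymerase III promoter that are copied with the help of LINE proteins. Mouse B1, placed in the Alu family by the annotation, derives from 7SL RNA, and B2 derives from a tRNA. Within the B2 family, B3 and B3A are older and more diverged than B2_Mm2. The B4 family (B4, B4A, RSINE1 and ID_B1) joins tRNA-type and B1-type parts, and MIR is an ancient element found across mammals.

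Sequence under a SINE peak is shown for the one region held by both WT lists whose windows also overlap a promoter in the RefSeq promoter table (build GRCm38.p6). Both windows are annotated as B3 at their centre, the nearest gene is Hnrnpll, which encodes an RNA-binding regulator of splicing, and the windows overlap the promoter of the predicted gene Gm41625. The stretch below lies at chr17:79981745-79981951 on the minus strand, is 207 bases long, and is the part of that promoter inside the WT complete-medium window. Capitals mark the 124 bases that also lie inside the WT window without leucine. The annotation names the element at the window centre only, so where B3 starts and ends along this stretch is not known here.
Gm41625 promoter within the peak: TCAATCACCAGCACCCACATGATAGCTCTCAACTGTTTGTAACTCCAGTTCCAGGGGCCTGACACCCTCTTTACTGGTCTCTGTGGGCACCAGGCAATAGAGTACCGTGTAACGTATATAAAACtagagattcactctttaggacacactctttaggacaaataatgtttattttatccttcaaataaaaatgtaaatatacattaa
The stretch was searched on both strands for an antioxidant response element core (TGACNNNGC), an AP-1 site (TGANTCA), an RNA polymerase III B box (GTTCNANNC) and the core of the CTCF motif, and it matched none of them. The rest of both windows lies outside the promoter and was not searched, and this includes the centre of the WT window without leucine. The peak as a whole may thus still hold such a motif. Among all 32851 promoters of the table, each 250 bases before to 50 after a start, 12.4% held the antioxidant response element core, 7.81% the AP-1 site, 9.32% the B box and 0.813% the CTCF core. A promoter is longer than the stretch shown, so these shares are higher than a stretch of this length would give. This B3 peak ranked 280.5 of 2336 by score in WT complete medium and 162 of 5980 in WT without leucine, and neither GCN2 KO list held it.

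SINE peaks made up a similar share of each list. There were 214 of 2336 in WT complete medium, or 9.16% (95% interval 8.02 to 10.4), and 518 of 5980 in WT without leucine, or 8.66% (7.96 to 9.40). In GCN2 KO there were 245 of 3141 in complete medium, or 7.80% (6.89 to 8.79), and 398 of 4600 without leucine, or 8.65% (7.86 to 9.50). The 4 intervals overlap one another. HOMER, which made the annotation, takes it at the centre of a window and by default names a repeat only where no promoter or exon applies. All SINE peaks were placed in an intron (751) or between genes (624).

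B4 and B2 supplied most of the members, with 564 and 483 peaks, followed by Alu with 192, MIR with 106, ID with 27, tRNA-type elements with 2 and Deu with 1. B3 was the most frequent element name, with 260 peaks. It was followed by B4A with 218, B3A with 165, B4 with 120, RSINE1 with 118 and ID_B1 with 108. B2_Mm2, the younger B2 element, had 55 peaks. How often each element occurs in the genome was not used here, so these counts give the makeup of the lists and not an enrichment.

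The B2 share of the list was 4.11% in WT complete medium (96 peaks, 3.34 to 4.996) and 2.88% in WT without leucine (172 peaks, 2.47 to 3.33). It was 2.45% in GCN2 KO complete medium (77 peaks, 1.94 to 3.05) and 3% in GCN2 KO without leucine (138 peaks, 2.53 to 3.53). WT complete medium was the highest of the 4, and its interval overlapped that of GCN2 KO without leucine alone. The order changed when each list was cut to its 2336 highest-scoring peaks. There were then 96, 110, 66 and 106 B2 peaks in WT complete medium, WT without leucine, GCN2 KO complete medium and GCN2 KO without leucine. At that equal length WT without leucine held more B2 peaks than WT complete medium, and GCN2 KO complete medium held the fewest. The cut changes the score limit as well as the length. With the higher-scoring 50% of each list WT complete medium stayed highest, at 6.42% beside 4.25%, 3.76% and 4.61%. The B4 share ranged from 3.12% in WT complete medium to 3.73% in WT without leucine, and the Alu share from 1.05% in GCN2 KO complete medium to 1.35% in GCN2 KO without leucine.

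**Figure D1:**
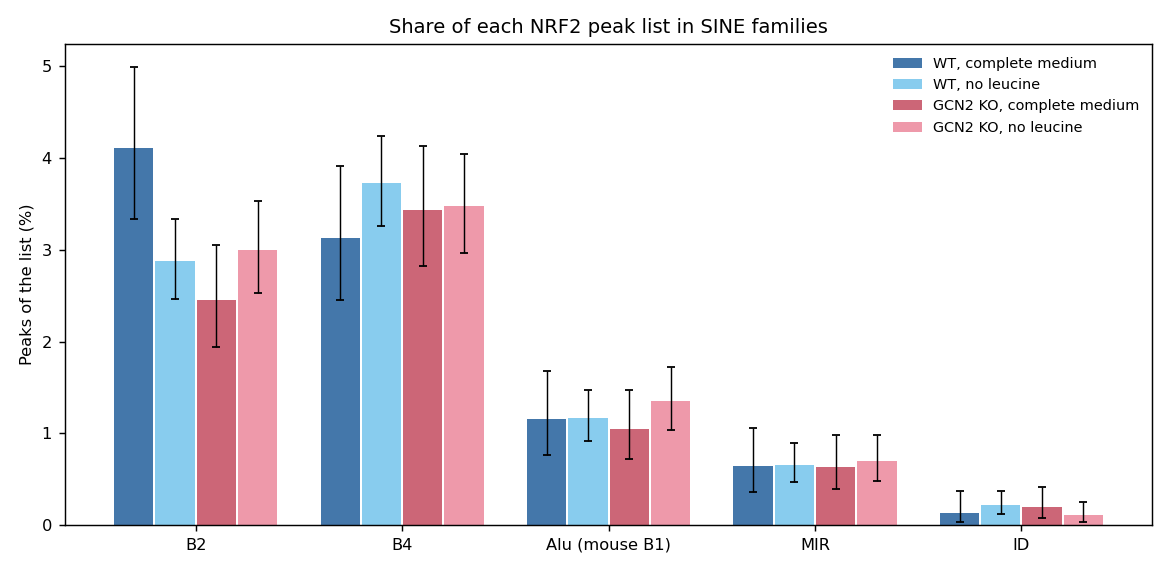
Share of each NRF2 peak list (y axis, % of peaks) that was annotated to each SINE family (x axis), with 1 bar per list and exact 95% intervals for counting error. The B2 bar of WT complete medium stands at 4.11% and the other 3 B2 bars between 2.45% and 3%, while the B4 bars lie between 3.12% and 3.73%.

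B2-family peaks stood high in the score order of each list. The score is the authors' own value for a peak and was used only to rank peaks within a list, with 0% for the highest score, 100% for the lowest, and ties at their mean rank. The median B2 peak ranked at 20.8% in WT complete medium, 17.97% in WT without leucine, 22.5% in GCN2 KO complete medium and 16.0% in GCN2 KO without leucine. Peaks with no repeat had medians of 50.6%, 50.4%, 51.7% and 55.3% in the same order.

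The other frequent families, B4, Alu and MIR, stood lower than B2 in each list. The median B4 peak ranked at 50.6%, 50.4%, 40.2% and 47.3%, and the median Alu peak at 54.3%, 50.4%, 57.4% and 55.3%, in the same order of lists, and MIR medians ranged from 50.4% to 60.5%. ID peaks were few, and their medians ran from 12.2% (3 peaks, WT complete medium) to 75.3% (13 peaks, WT without leucine). RSINE1 stood higher than its B4 family as a whole, with medians of 26.3%, 30.1%, 27.6% and 25.7%. The highest-scoring 10% of each list held 20 of the 96 B2 peaks of WT complete medium (20.8%) and 53 of 172 in WT without leucine (30.8%). In GCN2 KO it held 17 of 77 in complete medium (22.1%) and 43 of 138 without leucine (31.2%). Of the SINE peaks outside B2, that top 10% held between 8.09% in WT without leucine and 9.62% in GCN2 KO without leucine.

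**Figure D2:**
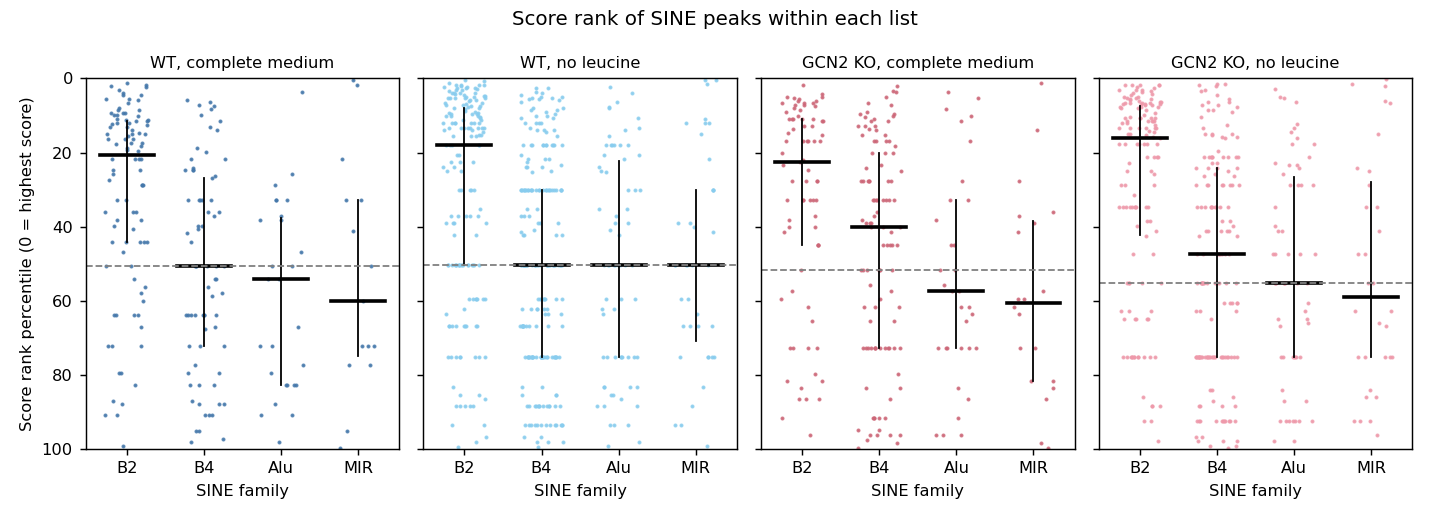
Score rank percentile within the list (y axis, 0 = highest score) of each SINE peak by family (x axis), 1 panel per list; thick bars are medians, thin lines quartiles, and the dashed line is the median of peaks with no repeat. The B2 medians lie between 16.0% and 22.5% in the 4 panels, above the dashed line, while the B4 medians lie between 40.2% and 50.6%.

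SINE peaks were found again in other lists more often than peaks at large. A peak was counted as recurrent when it overlapped a peak of any other list by at least 1 bp. In WT complete medium 81 of 214 SINE peaks were recurrent, or 37.9% (31.3 to 44.7), beside 27.0% of all peaks of that list. In WT without leucine the count was 104 of 518, or 20.1% (16.7 to 23.8), beside 12.6% of all peaks. In GCN2 KO complete medium it was 61 of 245, or 24.9% (19.6 to 30.8), beside 18.4%, and in GCN2 KO without leucine 98 of 398, or 24.6% (20.5 to 29.2), beside 14.0%. In each list the SINE interval lies above the background share. LINE peaks lay below it, at 17.9%, 6.28%, 11.04% and 7.58% in the same order, and LTR peaks stood at 29.7%, 14.9%, 19.5% and 15.7%. The shares of the lists cannot be ranked against each other, because a short list faces longer ones.

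The B2 family carried most of this recurrence. In WT complete medium 60 of 96 B2 peaks overlapped another list (62.5%, 52.0 to 72.2), and in WT without leucine 66 of 172 did (38.4%, 31.1 to 46.1). In GCN2 KO the counts were 35 of 77 in complete medium (45.5%, 34.1 to 57.2) and 60 of 138 without leucine (43.5%, 35.1 to 52.2). SINE peaks outside B2 were recurrent in 17.8%, 10.98%, 15.5% and 14.6% of cases in the same order. In WT complete medium, WT without leucine and GCN2 KO complete medium that was below the share over all peaks, and in GCN2 KO without leucine it was 14.6% beside 14.0%.

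It was not particular to the older B2 elements. B3 peaks were recurrent in 64.3%, 42.0%, 52.5% and 43.4% of cases and B3A peaks in 67.7%, 31.8%, 37.0% and 43.9%. The younger B2_Mm2 was rarer, with 3 of 8, 8 of 17, 4 of 10 and 9 of 20 peaks recurrent, or 37.5%, 47.1%, 40% and 45%. These shares too lay above those over all peaks. Its intervals are wide, and they include the share over all peaks in both complete-medium lists but not in the lists without leucine. The B4 family was uneven. RSINE1 was recurrent in 9 of 17, 14 of 48, 9 of 25 and 11 of 28 peaks, or 52.9%, 29.2%, 36.0% and 39.3%. B4A, the most frequent B4-family element, reached only 10.3%, 3.49%, 2.44% and 3.23%, each below the background share of its list.

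**Figure D3:**
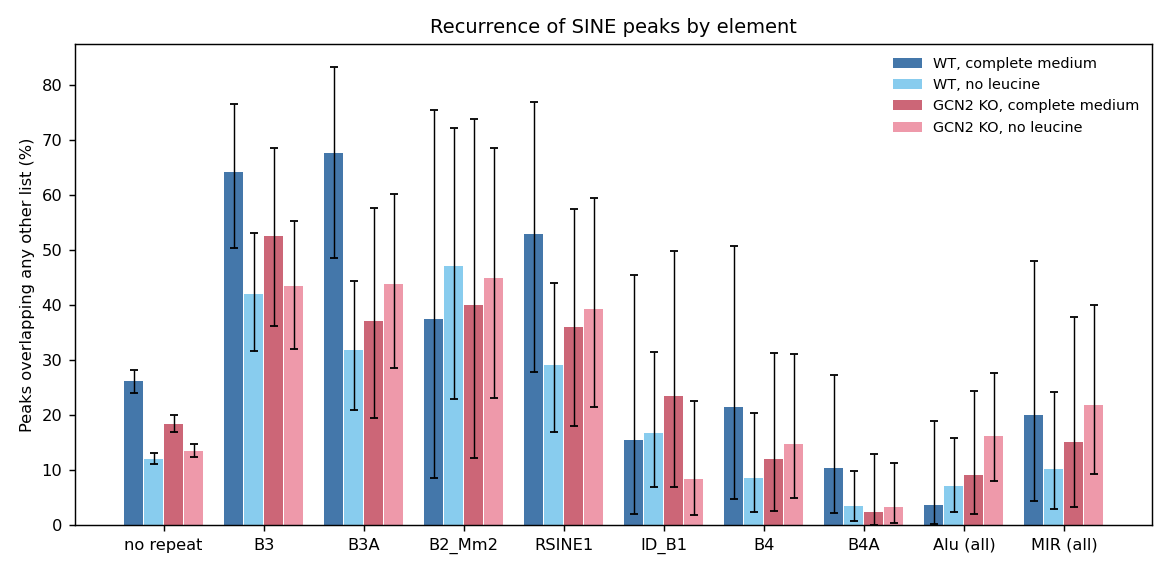
Share of peaks that overlapped any other list (y axis, %) for peaks with no repeat, 7 SINE elements and the whole Alu and MIR families (x axis), with 1 bar per list and exact 95% intervals for counting error. B3 runs from 42.0% to 64.3% and RSINE1 from 29.2% to 52.9%, while B4A runs from 2.44% to 10.3%.

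Score moved with this result. For B2, for other SINEs and for peaks with no repeat, recurrence was highest in the highest-scoring 20% of each list, and B2 peaks scored high. Within that 20%, B2 peaks were recurrent in 81.3% (39 of 48), 63.6% (56 of 88), 69.4% (25 of 36) and 63.6% (49 of 77) of cases, in the order WT complete medium, WT without leucine, GCN2 KO complete medium and GCN2 KO without leucine. Peaks with no repeat there stood at 81.7%, 49.8%, 68.6% and 51.6%. The values of both classes were close in both complete-medium lists, the B2 value was the higher one in both lists without leucine, and the 95% intervals overlapped in each list.

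In the next 20% of the score order B2 peaks lay above peaks with no repeat in each of the 4 lists. The B2 shares there were 68.4% in WT complete medium (13 of 19, 43.4 to 87.4), 25% in WT without leucine (6 of 24, 9.77 to 46.7), 29.4% in GCN2 KO complete medium (5 of 17, 10.3 to 56.0) and 32.0% in GCN2 KO without leucine (8 of 25, 14.9 to 53.5). The shares of peaks with no repeat were 22.6% (18.3 to 27.5), 6.09% (4.61 to 7.87), 12.6% (9.67 to 15.9) and 10.2% (8.02 to 12.9). The intervals do not overlap in WT complete medium, WT without leucine and GCN2 KO without leucine, and they overlap in GCN2 KO complete medium. The lower 60% of each list held few B2 peaks and wide intervals, and the order was not the same throughout: in the middle 20% of WT without leucine 0 of 27 B2 peaks recurred (interval up to 12.8%), beside 3.51% of peaks with no repeat. In the other lower classes of the 4 lists the B2 share was the higher one, on 6 to 20 B2 peaks each.

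**Figure D4:**
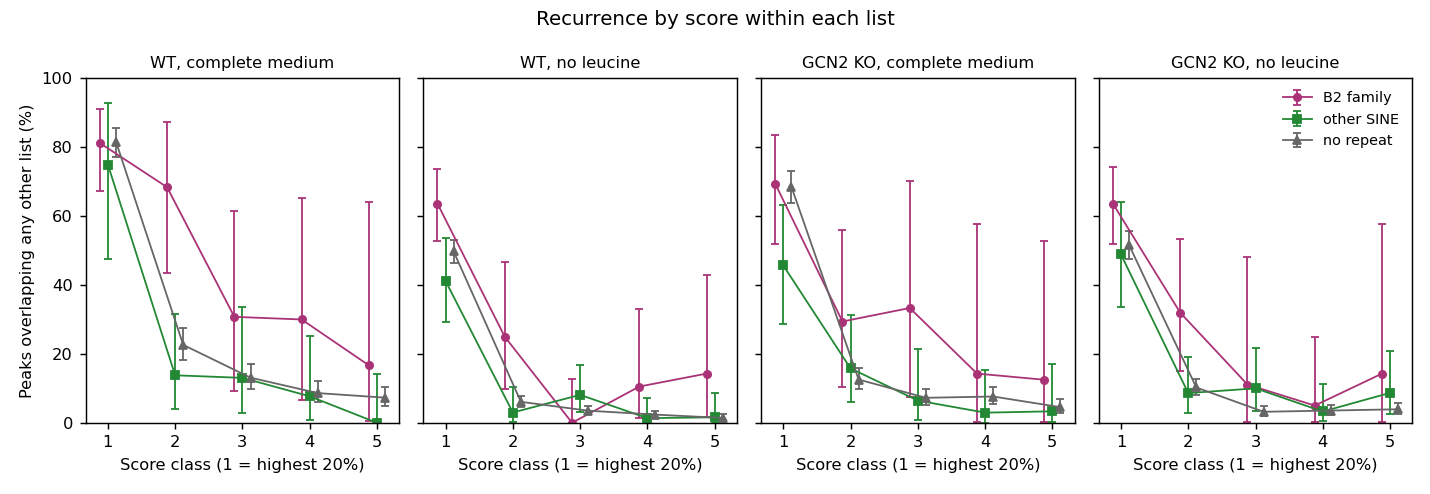
Share of peaks overlapping any other list (y axis, %) by score class of 20% of the list (x axis, 1 = highest), 1 panel per list, for B2-family peaks, other SINE peaks and peaks with no repeat, with exact 95% intervals for counting error. In class 2 the B2 points lie at 68.4%, 25%, 29.4% and 32.0%, above the points of peaks with no repeat at 22.6%, 6.09%, 12.6% and 10.2%.

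Lists of 1 genotype share an input, so the overlap was also taken with the lists of the other genotype alone. B2 peaks were then recurrent in 51.0%, 31.4%, 37.7% and 39.9% of cases, and all peaks in 20.6%, 10.1%, 15.3% and 11.9%, in the same order. This comparison was added after the data were seen, and the part of the shared input in the overlaps was not tested.

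Leucine withdrawal and genotype were compared list by list. In WT cells 67 of 214 SINE peaks of complete medium (31.3%, beside 22.9% of all peaks) were also held without leucine, and 72 of 518 SINE peaks without leucine (13.9%, beside 8.96%) were also held in complete medium. In GCN2 KO cells the shares were 17.6% of the complete-medium SINE peaks (43 of 245, beside 13.7%) and 12.1% of those without leucine (48 of 398, beside 9.33%). Fewer SINE peaks were shared between the media than not, and the same held over all peaks of each list.

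Between genotypes in complete medium, 38 of 214 WT SINE peaks (17.8%, beside 15.6% of all peaks) were shared with GCN2 KO, and 35 of 245 GCN2 KO SINE peaks (14.3%, beside 11.6%) were shared with WT. Without leucine the shares were 13.5% of WT SINE peaks (70 of 518, beside 7.96%) and 18.6% of GCN2 KO SINE peaks (74 of 398, beside 10.4%). For B2 alone, 29.2% of WT peaks (28 of 96) and 29.9% of GCN2 KO peaks (23 of 77) were shared in complete medium, and 26.7% (46 of 172) and 32.6% (45 of 138) without leucine. In the WT pair of media B2 peaks were shared at 51.0% from complete medium (49 of 96) and 29.1% from the list without leucine (50 of 172), and in the GCN2 KO pair at 32.5% (25 of 77) and 21.0% (29 of 138).

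Of the 1184 SINE regions, 1031 were in 1 list, 77 in 2, 45 in 3 and 31 in all 4. The 31 were 2.62% of SINE regions, and 1.78% of all 14390 merged regions were held by all 4 lists. Of the 357 B2 regions 20 were held by all 4, or 5.60%. A region with more peaks has more chances that 1 of them is annotated as SINE, and in 15 of the 31 every list called the peak SINE. Those 15 were among 1128 regions in which every peak was SINE, a share below that over all merged regions. That stricter rule has the opposite bias, since more peaks give more chances to fail it, so the direction depends on the rule. Peak centres within the 31 regions moved by 9 to 104 bp between lists, with a median of 41 bp, and the annotation is taken at the centre.

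Most of the 31 shared regions were named as an older B2 element in at least 1 list, though not always in each list. Among all 1375 SINE peaks, 260 were B3 and 165 were B3A. B3 or B3A was named in 19 of them, RSINE1 in 3 and MIR-family elements in 3. They lay in an intron in 19 cases and between genes in 12, and 10 were within 10 kb of a TSS. In 13 the peak was in the highest-scoring 10% of each list, and in 20 it was in the highest-scoring 20% of each list. The same count was not made for all 256 regions in 4 lists. In the highest-scoring 20%, 79.8%, 47.2%, 62.6% and 49.6% of peaks of any class were recurrent, beside 27.0%, 12.6%, 18.4% and 14.0% of whole lists. High scores are thus not particular to shared SINE regions. Lists are in the order used above.

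The strongest of them was a MIR in intron 1 of 14 of Fnbp1, which encodes an F-BAR protein that bends membranes. Its WT complete-medium window is on chromosome 2, 31127966 to 31128266, 13892 bp from the TSS. The score was 696 in WT complete medium, 568 in WT without leucine, 265 in GCN2 KO complete medium and 585 in GCN2 KO without leucine, at ranks 9, 22, 36 and 11. It was the highest-scoring SINE peak in WT complete medium and in both GCN2 KO lists. A second MIR-family element, a MIRc 4303 to 4356 bp upstream of Pak6, a p21-activated kinase, ranked 39, 20.5, 440 and 94.5 in the same order. That peak was the highest-scoring SINE peak of WT without leucine, and its lowest rank was in GCN2 KO complete medium.

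Several B3 and B3A regions lay in the highest-scoring 20% of each list. The region of Ankrd11, a chromatin regulator, is a B3 in intron 1 of 13 on chromosome 8, 122976056 to 122976356, and ranked 31 in WT complete medium, 355.5 in WT without leucine, 56 in GCN2 KO complete medium and 80 in GCN2 KO without leucine. A B3A in intron 8 of 11 of Tatdn1, a TatD-family nuclease gene, ranked 47, 111.5, 318 and 101.5 in the same order. Both were called SINE in all 4 lists. A B3 lying 1329 to 1353 bp upstream of Macrod1, which encodes an enzyme that removes ADP-ribose, ranked 104, 145.5, 176 and 165.5 and was the closest to a TSS among the 20 best-ranked shared regions. The B3A upstream of the homeobox gene Msx2, at about 42 kb (41971 to 41980 bp), had ranks 138, 314, 162.5 and 197.5 and centres within 9 bp.

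At other shared regions the centre crossed the edge of the element. A peak 7453 to 7485 bp upstream of Tmem219, which encodes a receptor for IGFBP3, was named B3A in both WT lists and no repeat in both GCN2 KO lists, with centres within 32 bp. Its ranks were 51 and 45 in WT complete medium and WT without leucine, and 112.5 and 17 in GCN2 KO complete medium and GCN2 KO without leucine. The same split by genotype held for the B3 nearest A730085K08Rik, the B1F nearest Sptlc2, a subunit gene of serine palmitoyltransferase, and the B3A nearest the phosphoinositide phosphatase gene Inpp5f. The peak in intron 8 of 19 of Ascc2, a ribosome quality control factor, was B3 in 3 lists and no repeat in WT complete medium, at ranks 94.5, 27, 159 and 83.5. The B2_Mm2 in intron 12 of 16 of Agbl5, nearest to Ost4 of the oligosaccharyltransferase, behaved likewise at ranks 86, 74, 193.5 and 86.5. The peak of Smyd4 was called SINE in 1 list alone.

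Regions of the B4 family in all 4 lists included an RSINE1 nearest Calcoco1, a selective autophagy receptor gene, at ranks 176, 298.5, 65 and 72.5 in the order WT complete medium, WT without leucine, GCN2 KO complete medium and GCN2 KO without leucine. An ID_B1 in intron 23 of 27 of the deubiquitinase gene Usp48, nearest Rap1gap, ranked 228, 332, 157 and 82. An RSINE1 in intron 1 of 24 of the junction scaffold gene Magi1 ranked 465, 157, 210.5 and 353. In Ly6a, which encodes the surface protein Sca-1, the element was B3 in both WT lists and B4 in both GCN2 KO lists, with centres within 25 bp and ranks 89, 111.5, 222 and 396.
The remaining regions among the 20 best-ranked were a MIRb in intron 1 of 10 of the calmodulin-dependent kinase gene Camk1d (ranks 42, 92.5, 73.5 and 70), a B3 in Lrrc75b (436.5, 162, 428.5 and 81) and a B3A in intron 1 of 2 of Tmem51, nearest Tmem51os1 (510.5, 314, 210.5 and 137.5). Of the 3, the Camk1d peak alone ranked at 92.5 or better in each list, and it was named MIRb in both lists without leucine and no repeat in both complete-medium lists.

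**Figure D5:**
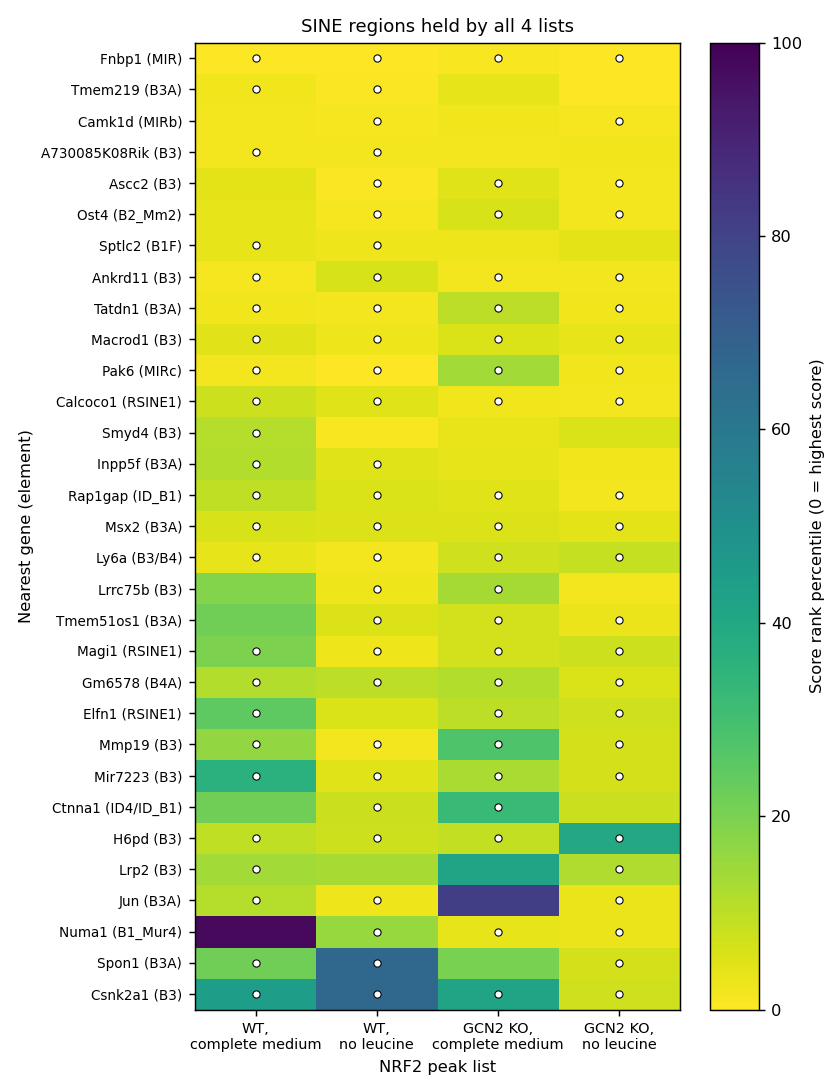
Score rank percentile (colour, 0 = highest score) of the 31 regions with a SINE peak that all 4 lists held (y axis, nearest gene and element), by list (x axis); a dot marks a list that annotated the peak as SINE. Rows are ordered by mean rank from Fnbp1 to Csnk2a1; the upper 20 are the named regions, percentiles run from 0.239 to 97.3, and 15 rows carry a dot in each list.

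H6pd was the gene with the most SINE peaks, 8 in 3 regions of intron 1 of 4, and was singled out after the values were seen. It encodes hexose-6-phosphate dehydrogenase, which makes NADPH in the endoplasmic reticulum. A B3 at 1050 to 1100 bp from its nearest TSS was held by all 4 lists. It ranked 219 in WT complete medium, 450.5 in WT without leucine, 288.5 in GCN2 KO complete medium and 1830.5 in GCN2 KO without leucine. A second B3, at 2296 to 2347 bp from its nearest TSS, was held by 3 lists at ranks 351, 577.5 and 340. It was missing in GCN2 KO without leucine. The WT complete-medium windows of both B3 regions are at 150001995 to 150002295 and 150006577 to 150006877 on chromosome 4. Their distances are therefore from different start sites of H6pd and do not give the spacing of the regions. An ID_B1 between them, 1765 bp upstream of its nearest TSS, was called in WT without leucine at rank 5288.5. WT complete medium held an overlapping peak there at rank 672.5, with no repeat at its centre.

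Of the 45 SINE regions in 3 lists, 24 were missing from GCN2 KO complete medium, 8 from GCN2 KO without leucine, 7 from WT complete medium and 6 from WT without leucine. Over all 209 regions in 3 lists the counts were 72, 59, 51 and 27, so GCN2 KO complete medium was also the list most often missing there. The best-ranked were a B3A nearest Polr2m, a gene that yields a regulator of RNA polymerase II, at ranks 104 in WT complete medium, 183.5 in WT without leucine and 76 in GCN2 KO without leucine, and a B3A in intron 2 of 4 of the zinc finger gene Jazf1, at 127, 104 and 232.5 in both WT lists and GCN2 KO complete medium. A B2_Mm2 in intron 2 of 27 of Tnrc18 was missing from GCN2 KO complete medium, and a region in Gc, the vitamin D-binding protein gene, from WT without leucine. The Gc peak was named B2_Mm2 in GCN2 KO without leucine and the LINE element Lx5c in both complete-medium lists. A B3 in intron 8 of 9 of Mrpl39, 6600 to 6644 bp from the gene of the inflammatory microRNA Mir155, was missing from GCN2 KO without leucine. The Jazf1 peak had no repeat in WT without leucine, and the Mir155 peak had none in WT complete medium.
An RSINE1 nearest Gm8994 was missing from WT complete medium. It ranked 104.5 in GCN2 KO complete medium and 66.5 in GCN2 KO without leucine, among the 5 best SINE peaks of both lists, and 1800 in WT without leucine.

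Regions held by 2 lists alone were spread over all pairs. Both WT lists alone shared 20, both GCN2 KO lists 13, both complete-medium lists 3 and both lists without leucine 22, while WT complete medium with GCN2 KO without leucine shared 8 and the opposite pair 11. Over all merged regions the same pairs held 149, 97, 23, 97, 44 and 66, so complete medium alone was the smallest set there too. The 3 shared by complete medium alone were a B3 in Phc2, a Polycomb gene, a B3 nearest Otogl and a B3A nearest Naf1, an assembly factor of H/ACA ribonucleoproteins, whose peak had no repeat in GCN2 KO. The complete-medium lists are the shorter ones of each genotype, with 2336 and 3141 peaks against 5980 and 4600, and the part of list length in these counts was not tested.

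The best-ranked regions of the lists without leucine alone were a B1_Mur1 in intron 3 of 19 of the sorting receptor gene Sort1, at ranks 228 in WT and 240 in GCN2 KO, and a B3A about 105 kb (105011 to 105050 bp) upstream of Syt13, at 450.5 and 207. They were followed by a B2_Mm2 nearest the DNA repair gene Rad23b (187.5 and 620), an RSINE1 in intron 31 of 31 of Kidins220, nearest the transcriptional inhibitor gene Id2 (480.5 and 483.5), and a MIR in intron 1 of 20 of the scaffold gene Magi2 (716.5 and 280.5). The lowest rank among these 5 regions was 716.5, and neither complete-medium list held a peak there. The Rad23b peak had no repeat in WT, and the Id2 peak had none in GCN2 KO.

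WT alone shared a B4 in intron 11 of 15 of the aminopeptidase gene Aopep, nearest 2010111I01Rik, at ranks 104 in complete medium and 298.5 without leucine. It also shared a B3 in intron 7 of 7 of Smpdl3b, nearest the phospholipid scramblase gene Xkr8 (233 and 174), a B3 about 6 kb (6039 to 6078 bp) from the let-7 microRNA gene Mirlet7i (201.5 and 228), the B3 nearest Hnrnpll printed above, and an RSINE1 in Cmip (193.5 and 387.5). GCN2 KO alone shared a B1_Mur4 in intron 1 of 5 of Ap4s1, nearest Strn3 (162.5 in complete medium and 165.5 without leucine), and a B3 far upstream of the secreted ligand gene Prok2 (212.5 and 119). It further shared a B2_Mm2 in intron 8 of 16 of the centriole gene Sass6, nearest the tRNA methyltransferase gene Trmt13 (209 and 244.5), a B3 in intron 1 of 6 of the interferon-induced gene Ifi35 (247.5 and 368.5) and an RSINE1 14519 to 14525 bp upstream of the serotonin receptor gene Htr1d (118.5 and 725). The element differed between lists at the peak nearest 2010111I01Rik, which had no repeat in WT complete medium, and at that nearest Strn3, which was the LTR element ORR1A4 in GCN2 KO without leucine. Over the full sets, 13 of the 20 SINE regions of WT alone and 5 of the 13 of GCN2 KO alone held a B2-family peak. Of all 77 SINE regions in 2 lists 40 did, and of all 1184 SINE regions 357 did. The sets are small and the difference between genotypes was not tested. A list without a given region may still hold signal there under the calling threshold, and the read depth of the lists is unknown.

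SINE peaks were about as frequent within 10 kb of genes as peaks at large, and rare within 1 kb. The share within 10 kb of a TSS was 27.1% in WT complete medium, 30.7% in WT without leucine, 23.3% in GCN2 KO complete medium and 25.1% in GCN2 KO without leucine, and for all peaks it was 25.8%, 28.3%, 25.7% and 23.4%. There were 2 SINE peaks within 1 kb in each list, 8 in all, or 0.935%, 0.386%, 0.816% and 0.503%, beside 4.71%, 5.29%, 3.73% and 3.61% of all peaks, under an annotation that gives promoters priority over repeats. The median distance was 21.1, 21.8, 20.97 and 23.7 kb for SINE peaks and 27.9, 24.4, 28.5 and 31.5 kb for all peaks, shorter for SINE peaks in each list. Just 1 such region recurred, a B3 at 787 to 801 bp from LOC100503676 in intron 1 of 2 of Gm38426, at ranks 237 in WT complete medium and 144.5 in GCN2 KO without leucine. SINE windows had a median GC content of 48.8%, 49.7%, 49.8% and 49.5% in the order of lists above, and windows with no repeat had 51.8%, 52.5%, 52.5% and 52.5%.

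Known targets of NRF2 were not the nearest genes of close SINE peaks. Within 10 kb of a TSS no SINE peak was assigned to any of 61 NRF2 target genes, 43 heme and iron genes or 46 genes of the ATF4 and amino acid response, in any of the 4 lists. By peaks of any class within 10 kb, 32, 36, 24 and 23 of the NRF2 targets had one in WT complete medium, WT without leucine, GCN2 KO complete medium and GCN2 KO without leucine, as did 8, 11, 8 and 8 of the heme and iron genes and 1, 4, 0 and 0 of the ATF4 genes. Over all genes, SINE peaks were 58 of 602, 159 of 1689, 57 of 807 and 100 of 1077 peaks within 10 kb. At such shares few genes of these lists would have a close SINE peak, and their absence was not tested. Farther out, 6 genes of these lists were nearest to a SINE peak. In WT without leucine they included Fech, the ferrochelatase gene of heme synthesis (a B3 at 50088 bp, rank 314), Esd (B4, 21240 bp), the glutathione peroxidase gene Gpx4 (ID4_, 11228 bp, inside Sbno2) and Ugdh (RSINE1, 18794 bp upstream). In GCN2 KO without leucine it was Bach1, the heme-binding repressor of NRF2 target genes (B4A, 51191 bp upstream). None of the 6 peaks was found in another list. In WT without leucine 20.1% of SINE peaks and 12.6% of all peaks were recurrent. In GCN2 KO without leucine the shares were 24.6% and 14.0%, so most peaks of both lists were likewise not recurrent.

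The strongest SINE peaks of a single list reached high ranks as well, and were chosen for their score. In WT complete medium it was a B4A nearest Nrbf2, an autophagy gene, at rank 138, and in WT without leucine a B4A nearest Megf9 at rank 155. In GCN2 KO complete medium it was a B3A 2220 bp upstream of the centrosome gene Sfi1 at rank 136. In GCN2 KO without leucine it was a B4 16091 bp upstream of Ppp1r15b, whose product helps remove the phosphate that GCN2 places on eIF2 alpha, at rank 144.5.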

How the data were processed

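Single reads of 50 bp were sequenced, per the labels' protocols. BWA 0.7.12, MACS2 2.1.0 and HOMER 4.7 on mm10 are named in the submitters' processing notes without settings. Peaks were called per library, per the file headers. The authors deposited a whole-number score per peak (lowest 13), whose origin the sources used here do not give, the distance to the nearest TSS in bp, and GC content as a fraction of the 301 bp window. Here the lists were read with pandas 2.3.3, SINE peaks were taken by the repeat annotation, overlaps of at least 1 bp were counted, and exact intervals were computed with scipy 1.17.1. The counting was tested on simulated lists. Coordinates are 1-based on mm10. The motif search was made in RefSeq promoters, since a genome was not used here. Members, gene lists and rules were chosen with earlier results of these data known.

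Named genes were the 20 best-ranked SINE regions in all 4 lists, the 5 highest-scoring SINE peaks per list, members of the gene lists, the 5 best-ranked regions of 3 lists or of 1 genotype or medium alone, and recurrent peaks within 1 kb. One gene that meets these rules is not reported here, although the counts include it. The comparisons were leucine withdrawal in WT and in GCN2 KO, and the genotypes in each medium. Alternatives changed the score threshold, list length, overlap rule, TSS distance and partner lists. Read depth is unknown, so intervals cover counting error only.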

Additional observations from a re-analysis of the deposited data

Results flagged for a closer look

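In 3 measures the lists without leucine differed from those in complete medium in opposite directions in the genotypes, with 1 library per condition, and the differences were not tested. The SINE share of the list differed (without leucine minus complete medium) by -0.499 percentage points in WT and by 0.852 in GCN2 KO. The B2 share differed by -1.23 percentage points in WT and by 0.549 in GCN2 KO. The median score rank of SINE peaks differed by 7.94 percentage points in WT, which is toward lower scores, and by -0.608 in GCN2 KO. At the equal length of 2336 peaks the SINE counts were 214 in WT complete medium and 242 in WT without leucine, and 197 and 234 in GCN2 KO, so the SINE share then differed in the same direction in both genotypes.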

How the results depend on the processing

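Of 91 recomputed values 57 stayed within a set limit and 34 moved beyond it. The limit was the value's own interval, 1.5 times the count or, for median ranks, the quartiles of the peaks. Those quartiles are a spread of peaks and a wide limit for a median. In WT without leucine the median went from 46.3% to 50.4% on main chromosomes without satellite, simple or low-complexity repeats, and counted as unmoved. Values below are in the order WT complete medium, WT without leucine, GCN2 KO complete medium and GCN2 KO without leucine. With the higher-scoring 50% of each list the SINE share was 10.96%, 9.90%, 9.30% and 10.1%, the B2 share 6.42%, 4.25%, 3.76% and 4.61%, and the recurrence of SINE peaks 55.5%, 30.4%, 35.6% and 35.6%. B2 recurrence was then 47.2% in WT without leucine and 52.8% in GCN2 KO without leucine. At equal lengths, in WT without leucine and GCN2 KO without leucine, the SINE share was 10.4% and 10.02%, the B2 share 4.71% and 4.54%, SINE recurrence 37.6% and 36.3%, and B2 recurrence 56.4% and 53.8%. Against lists of the other genotype only, SINE recurrence was 31.3% in WT complete medium and 16.4% in WT without leucine, and B2 recurrence 51.0% in WT complete medium. The share within 1 kb of a TSS was 0.935%, 0.386%, 0.816% and 0.503%, and within 50 kb 74.3%, 76.6%, 70.2% and 69.6%, as the limit itself changed. When each peak of a region had to be SINE, 15 regions were in all 4 lists. The alternatives for the B2 family and for the other genotype were chosen after seeing the data. B2 recurrence lay above that of peaks with no repeat in each list under each overlap rule, with the higher-scoring 50% and at equal lengths, but not in each score class: in the highest-scoring 20% of WT complete medium it was 81.3% beside 81.7%. The planned share of windows with an antioxidant response element was not run, since a genome was not used here. No paired analysis was possible because each condition has 1 library. Read depth behind the lists is unknown, so a missing peak is below a threshold of unknown sensitivity.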
